A study of Mus musculus with 14 samples.

Results

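The 10 genes described here encode enzymes that make ceramide and turn it into sphingomyelin, glucosylceramide and sphingosine-1-phosphate. They were chosen by symbol (Sptlc1, Sptlc2, Cers2, Cers4, Cers6, Degs1, Sgms1, Sgms2, Ugcg and Sphk1). Each was matched to the row of the value table that carries only that symbol, and all 10 of 10 were found, each on 1 probe set, among 19937 genes with a symbol of their own. RNA came from epididymal fat, the visceral pad beside the testis, of male mice on a C57BL6/J background and was read on 14 Affymetrix arrays. There were 4 EKO arrays on HFD, 4 EKO arrays on ND, 3 WT arrays on HFD and 3 WT arrays on ND. The labels tie EKO to apolipoprotein E. HFD is a Western diet with 42% anhydrous milk fat, ND is a normal diet, and either was eaten for 24 weeks from 8 weeks of age. The labels call the replicates biological and do not say whether EKO and WT animals were littermates. All values below are log2 levels from RMA, so a difference of 1 is a doubling of the signal. Levels are not compared between genes, since probe sets differ in brightness.

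Ceramide is the hub of sphingolipid metabolism. Serine palmitoyltransferase condenses serine with palmitoyl-CoA, a reductase and a ceramide synthase turn the product into dihydroceramide, and a desaturase converts that into ceramide. Sphingomyelin synthases, glucosylceramide synthase and, after ceramidases release sphingosine, sphingosine kinases then draw on the pool. In fat, sphingolipids are studied for their ties to saturated fat intake, insulin action and inflammation, and apolipoprotein E is a protein of the lipoproteins that carry sphingomyelin in plasma.

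Apoe itself followed the labels on every array, with 9.84 to 10.26 in EKO on HFD, 9.46 to 9.99 in EKO on ND, 13.13 to 13.65 in WT on HFD and 13.14 to 13.61 in WT on ND. Array medians lay between 7.92 and 8.10, and arrays of a group correlated at 0.976 to 0.995. All 10 adipocyte markers stood above array background in every group, while 5 of 7 epididymis markers did not. Array background, the mean of 1208 olfactory and vomeronasal receptor rows, was higher on 5 arrays (6.75 to 6.84) than on the other 9 (6.29 to 6.56). The 5 were replicates 1 and 3 of EKO on HFD, replicate 2 of EKO on ND, replicate 1 of WT on HFD and replicate 1 of WT on ND. None of the 40 group means of the 10 genes lay at or below this background. The number of arrays limits the precision of every value.

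In EKO mice on HFD, Cers4 and Degs1 were lower than in WT mice on HFD, and these were the only 2 of the 10 genes that passed in any of the 5 comparisons. A gene passed at an adjusted p under 0.05 by limma, over all 19937 genes. In EKO on HFD against WT on HFD 0 of 10 were higher and 2 lower, where 5.69% of all genes passed (1.64% higher, 4.05% lower). The 10 genes had a median log2 fold change of -0.23, against 0.03 for all genes, and 9 of 10 values lay below 0. The arrays of both groups did not overlap for 5 of the 10, with 4 lower (Sptlc2, Cers4, Cers6 and Degs1) and 1 higher (Cers2). Over all genes 8.71% were lower and 7.93% higher without overlap. In whole tissue, fewer cells of a type and less RNA per cell cannot be told apart.

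**Figure D1:**
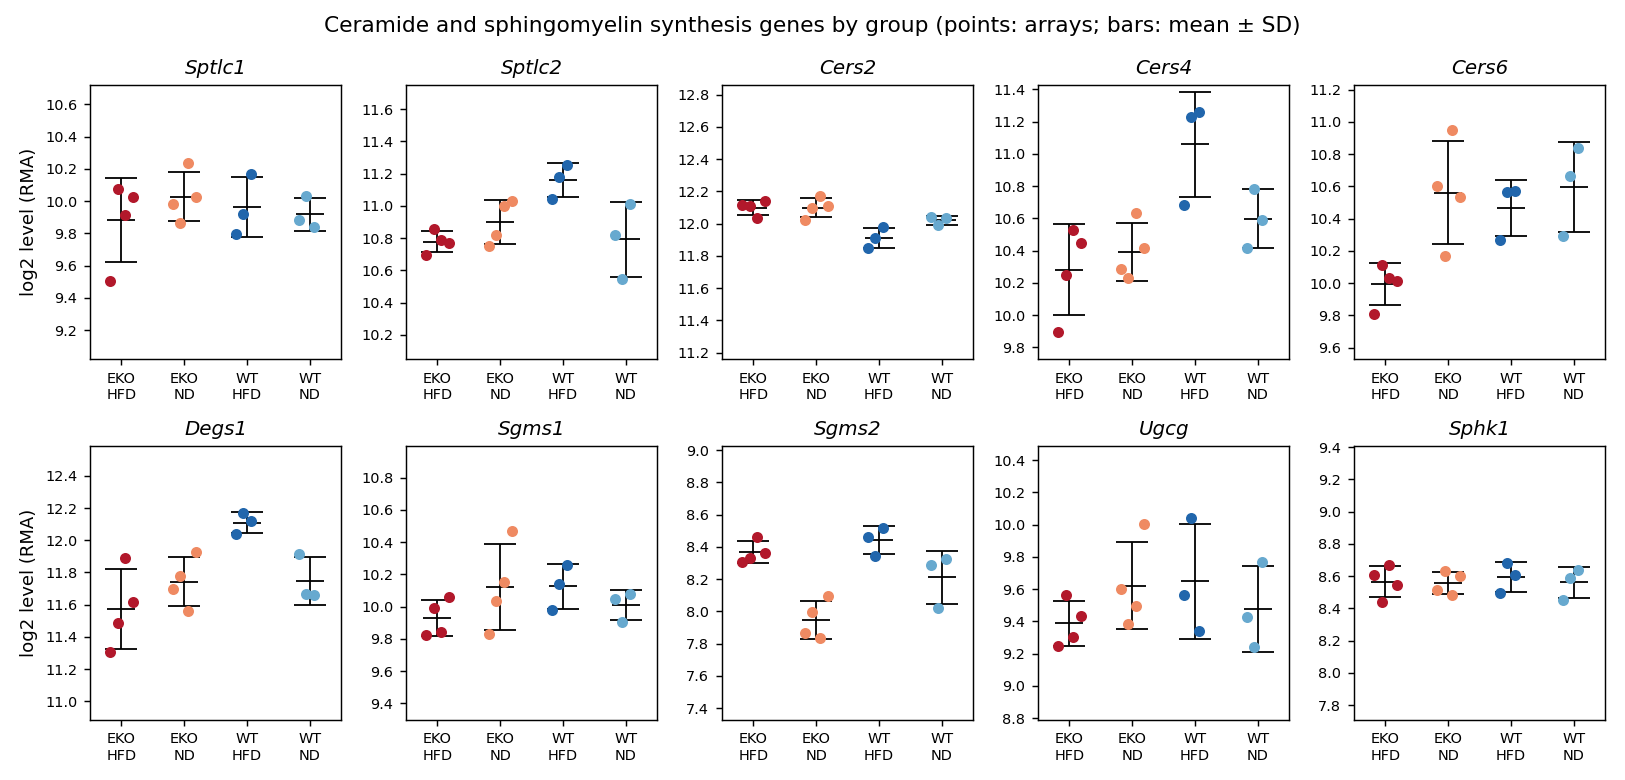
Log2 level of each of the 10 genes (vertical axes, each spanning the same log2 distance) on every array, grouped from left to right as EKO HFD, EKO ND, WT HFD and WT ND; points are arrays, and the cross lines mark the mean ± SD (n = 4, 4, 3 and 3). For Degs1 the 3 WT HFD arrays (12.04 to 12.17) lie above all 11 others, and for Cers6 the 4 EKO HFD arrays (9.81 to 10.12) lie below all 10 others.

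Markers of some other cells moved along the same contrast. Of 12 macrophage markers 0 were higher and 10 lower in EKO than in WT on HFD, and 9 rose and 0 fell with HFD in WT. Their mean log2 level per array was 9.70 to 9.99 in EKO on HFD, 9.17 to 10.22 in EKO on ND, 10.86 to 11.24 in WT on HFD and 9.52 to 9.82 in WT on ND, so that WT on HFD stood above the other groups. Of 5 markers of dividing cells 5 were lower in EKO than in WT on HFD, and 4 rose with HFD in WT. Their mean level was 7.30 to 7.61 in EKO on HFD, 7.36 to 7.45 in EKO on ND, 7.94 to 8.70 in WT on HFD and 7.28 to 7.41 in WT on ND. Of 6 mesothelial markers 1 was higher in EKO than in WT on HFD and 5 fell with HFD in WT, with mean levels of 9.81 to 10.16 in EKO on HFD, 9.58 to 10.32 in EKO on ND, 9.32 to 9.47 in WT on HFD and 10.32 to 10.79 in WT on ND. Adipocyte markers had mean levels of 13.01 to 13.18 in EKO on HFD, 13.13 to 13.23 in EKO on ND, 12.99 to 13.08 in WT on HFD and 13.10 to 13.14 in WT on ND; between the genotypes on HFD 2 of 10 were higher and 1 lower, and single markers had log2 fold changes of -1.14 to 0.58. With HFD in WT 0 of 10 adipocyte markers rose and 2 fell. Between the genotypes on HFD 0 of 5 endothelial, 0 of 5 smooth muscle and pericyte, 0 of 4 T cell and 0 of 3 B cell markers passed. All 5 endothelial markers had values above 0 on that contrast, with a median log2 fold change of 0.26, against 0.03 for all genes. Their mean level per array was 10.84 to 11.10 in EKO and 10.51 to 10.80 in WT on HFD. On ND it was 10.82 to 11.12 in EKO and 10.80 to 10.92 in WT. With HFD in WT 1 of the 5 smooth muscle and pericyte markers fell and 1 of the 4 T cell markers rose. No endothelial or B cell marker passed there. No macrophage, dividing cell, mesothelial or adipocyte marker was at or below array background in any group. The B cell marker Cd79a was at or below it in EKO on HFD, WT on HFD and WT on ND. The part of these cells in the values of Cers4, Degs1 and the other genes was not tested.

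The promoters of Cers4, Degs1 and Sptlc2 are shown because these genes had the 3 smallest adjusted p values of the 10 in EKO against WT on HFD, each with a value below 0. Each stretch runs from 250 bases before to 50 after the annotated start (RefSeq, GRCm38.p6), 5′ to 3′ on the gene's strand, and capitals mark every match to the motifs below. They lie at chr8:4493155-4493454 (plus strand) for Cers4, chr1:182282146-182282445 (minus strand) for Degs1 and chr12:87388306-87388605 (minus strand) for Sptlc2.
Cers4: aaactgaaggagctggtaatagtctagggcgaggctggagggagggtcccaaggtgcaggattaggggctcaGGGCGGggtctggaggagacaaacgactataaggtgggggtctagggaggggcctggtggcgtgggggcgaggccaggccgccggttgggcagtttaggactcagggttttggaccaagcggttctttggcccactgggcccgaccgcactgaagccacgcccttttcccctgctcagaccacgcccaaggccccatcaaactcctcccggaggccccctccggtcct
Degs1: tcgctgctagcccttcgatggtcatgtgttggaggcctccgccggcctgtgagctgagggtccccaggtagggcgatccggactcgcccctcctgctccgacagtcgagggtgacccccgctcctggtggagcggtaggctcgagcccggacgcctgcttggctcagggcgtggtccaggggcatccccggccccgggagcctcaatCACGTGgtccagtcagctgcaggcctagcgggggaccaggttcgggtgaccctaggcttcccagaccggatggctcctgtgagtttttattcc
Sptlc2: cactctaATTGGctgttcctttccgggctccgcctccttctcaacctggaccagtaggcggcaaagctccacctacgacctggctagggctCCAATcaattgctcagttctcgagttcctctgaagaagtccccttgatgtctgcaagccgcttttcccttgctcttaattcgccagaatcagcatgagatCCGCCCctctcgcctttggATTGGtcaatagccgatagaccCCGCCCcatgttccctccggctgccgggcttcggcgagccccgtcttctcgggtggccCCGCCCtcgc
GC content was 64.3% for Cers4, 67.3% for Degs1 and 59.3% for Sptlc2, against a median of 52.7% over 32851 promoters of the same length. Matches were searched for on both strands. The motif GGGCGG, which Sp1 is known to bind, was found once upstream of Cers4 and at 3 places in the Sptlc2 window, and is held by 35.7% of all promoters. The CCAAT box was found at 3 places in Sptlc2 (37.4% of promoters). The E-box CACGTG was found once in Degs1 (7.15%). The TATA box, searched as TATAAA, was found in none of the 3 windows (13.6%). No matches overlapped one another, and no motif was found in all 3 windows; GGGCGG was found in those of Cers4 and Sptlc2.

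Serine palmitoyltransferase, the first and rate-limiting enzyme, needs both Sptlc1 and Sptlc2, of which Sptlc2 carries the catalytic site. Sptlc2 had 10.70, 10.86, 10.78 and 10.77 in EKO on HFD and 10.75, 10.82, 10.998 and 11.03 in EKO on ND. In WT it had 11.04, 11.18 and 11.25 on HFD and 10.82, 10.55 and 11.01 on ND. All 3 WT arrays on HFD were above all 11 other arrays, as for 4.02% of all genes. The lowest of the 3 (11.04) lay next to replicate 4 of EKO on ND (11.03). Between the genotypes on HFD, Sptlc2 had a log2 fold change of -0.38 ± 0.11 (SE), adjusted p = 0.0566, which did not pass, with a 95% interval of -0.62 to -0.15. With HFD it had a log2 fold change of -0.12 ± 0.10, adjusted p = 0.946, in EKO and 0.37 ± 0.12, adjusted p = 0.0894, in WT. The difference between these diet effects was -0.49 ± 0.15, adjusted p = 0.204. Under 17 alternative settings the genotype difference on HFD passed in 7, with values of -0.44 to -0.28.

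Sptlc1, the partner subunit, overlapped between all groups. Its arrays ran from 9.50 to 10.08 in EKO on HFD, 9.87 to 10.24 in EKO on ND, 9.80 to 10.17 in WT on HFD and 9.84 to 10.03 in WT on ND. In EKO against WT on HFD its log2 fold change was -0.08 (95% interval -0.37 to 0.21), adjusted p = 0.787. Its sign was not settled, with values of -0.16 to 0.06 over 17 settings. Whether the subunits differed from each other was not tested.

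Ceramide synthases attach the fatty acid and differ in the chain length they prefer: Cers2 takes very long chains, Cers4 long chains and Cers6 shorter long chains such as palmitate. Cers4 had the widest spread of the 10, over 1.36 log2 units across the 14 arrays. Cers4 had 9.90, 10.25, 10.53 and 10.44 in EKO on HFD and 10.29, 10.23, 10.64 and 10.42 in EKO on ND. In WT it had 10.69, 11.23 and 11.26 on HFD and 10.42, 10.79 and 10.59 on ND. The 4 EKO arrays on HFD lay below the 3 WT arrays on HFD, of which replicates 2 and 3 were the highest of all 14 and replicate 1 fell within the range of WT on ND. Cers4 averaged 10.28 ± 0.28 in EKO on HFD (SD, n = 4) and 11.06 ± 0.32 in WT on HFD (SD, n = 3), a log2 fold change of -0.78 ± 0.17, adjusted p = 0.0153 by limma, or 1.72-fold lower. Its call ended without WT replicate 2 on HFD (-0.69, adjusted p = 0.0865) or WT replicate 3 on HFD (-0.68, adjusted p = 0.111), and it passed in the other 15 of 17 settings. Within the 9 arrays of lower background, 2 per group except 3 in EKO on ND, the value was -0.90 ± 0.13, adjusted p = 0.00425. With HFD Cers4 had a log2 fold change of -0.11 ± 0.16, adjusted p = 0.948, in EKO and 0.46 ± 0.18, adjusted p = 0.186, in WT. The WT value passed by limma in 3 of 16 settings. It passed within the arrays of lower background (0.56, adjusted p = 0.0251) and without WT replicate 1 on HFD (0.65, adjusted p = 0.036). The third was array weights (0.62, adjusted p = 0.000465), with which 26.2% of all genes passed. On ND the genotypes differed by -0.21 (95% interval -0.57 to 0.16), adjusted p = 1.

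Cers6 was lowest in EKO on HFD, where its 4 arrays (9.81, 10.12, 10.03 and 10.02) lay below all 10 others. Such a position, described after the values were seen, held for 0.13% of all genes. Cers6 had 10.60, 10.17, 10.95 and 10.53 in EKO on ND, 10.26, 10.57 and 10.57 in WT on HFD and 10.29, 10.66 and 10.84 in WT on ND. In each of those groups the lowest array was the one of higher background: replicate 2 of EKO on ND and replicate 1 of both WT groups. The log2 fold change with HFD in EKO was -0.57 ± 0.15, adjusted p = 0.67, which ranked as number 63 of 19937 genes by p and did not pass, and within the arrays of lower background it was -0.63, adjusted p = 0.35. Against WT on HFD it was -0.47 ± 0.16, adjusted p = 0.117 (95% interval -0.83 to -0.12). With array background as a block this was -0.42, adjusted p = 0.0291, and within the arrays of lower background -0.50, adjusted p = 0.0535. The genotype difference of Cers6 on HFD passed by limma in 3 of 17 settings, with adjusted p of 0.001 to 0.41.

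Cers2 ran the other way within narrow limits. Its arrays lay from 12.03 to 12.14 in EKO on HFD, 12.02 to 12.17 in EKO on ND, 11.85 to 11.98 in WT on HFD and 11.99 to 12.04 in WT on ND. The 3 WT arrays on HFD were below all 11 others, as for 3.42% of all genes. EKO on HFD differed from WT on HFD by 0.19 ± 0.07, adjusted p = 0.151. The value passed by limma in 2 of 17 settings. These were quantile normalization of the tested rows (0.25, adjusted p = 0.025) and array weights (0.21, adjusted p = 0.00243). On that contrast these 3 ceramide synthases therefore had values of -0.78 (Cers4), -0.47 (Cers6) and 0.19 (Cers2). Their 95% intervals were -1.14 to -0.42, -0.83 to -0.12 and 0.04 to 0.34. Cers5 and Cers3 were ceramide synthases measured outside the members, and neither passed on that contrast. Cers5 was at -0.12 (95% interval -0.33 to 0.096), adjusted p = 0.567 by limma. Cers3 was at 0.17 (95% interval -0.17 to 0.52), adjusted p = 0.603.

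Degs1, the desaturase that converts dihydroceramide to ceramide, was the other gene that passed. It had 11.30, 11.48, 11.89 and 11.62 in EKO on HFD and 11.70, 11.78, 11.56 and 11.93 in EKO on ND. In WT it had 12.04, 12.17 and 12.12 on HFD and 11.92, 11.66 and 11.66 on ND. The 3 WT arrays on HFD stood above all 11 others, as did those of 4.02% of all genes, and the other 3 groups overlapped. Degs1 averaged 11.57 ± 0.25 in EKO on HFD (SD, n = 4) and 12.11 ± 0.07 in WT on HFD (SD, n = 3), a log2 fold change of -0.54 ± 0.13, adjusted p = 0.0237 by limma, or 1.45-fold lower. Within the 9 arrays of lower background it was -0.59 ± 0.12, adjusted p = 0.0172. The call ended without EKO replicate 1, 2 or 4 on HFD (adjusted p = 0.0632, 0.0606 and 0.0514), without WT replicate 2 or 3 on HFD (0.104 and 0.112) and with only these 2 groups in the fit (0.0547). Its values in all 17 settings ran from -0.64 to -0.45. With HFD, Degs1 differed by -0.17 ± 0.12, adjusted p = 0.946, in EKO and by 0.36 ± 0.14, adjusted p = 0.16, in WT. The WT value passed by limma in 2 of 16 settings. These were the arrays of lower background (0.48, adjusted p = 0.0335) and array weights (0.45, adjusted p = 0.00117), where 26.2% of all genes passed with weights. On ND the genotypes differed by -0.0046 (95% interval -0.28 to 0.27).

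**Figure D2:**
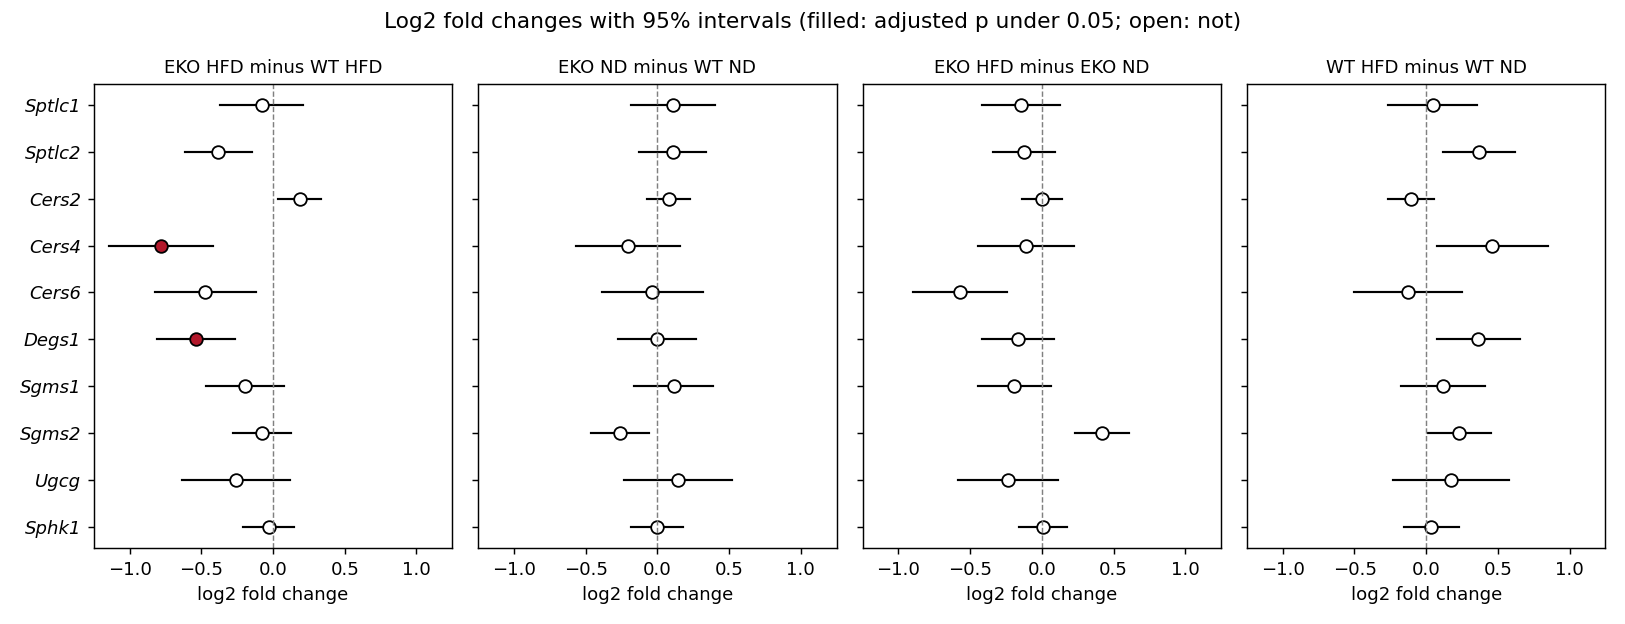
Log2 fold change of each of the 10 genes (horizontal axes) in 4 comparisons, from left to right EKO HFD minus WT HFD, EKO ND minus WT ND, EKO HFD minus EKO ND and WT HFD minus WT ND; lines are 95% intervals, and filled points have an adjusted p under 0.05. The 2 filled points are Cers4 (-0.78) and Degs1 (-0.54) in the first panel; Sgms2 has the highest value of the third panel (0.42) and Cers6 the lowest (-0.57).

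The sphingomyelin synthases transfer phosphocholine to ceramide, Sgms1 in the Golgi and Sgms2 mainly at the plasma membrane. Sgms2 had 8.31, 8.33, 8.46 and 8.36 in EKO on HFD against 7.86, 7.99, 7.84 and 8.09 in EKO on ND, so that these groups did not overlap. In WT it had 8.46, 8.35 and 8.52 on HFD against 8.29, 8.02 and 8.33 on ND, again without overlap. EKO on ND was the lowest group, and its highest array (8.09) was above only replicate 2 of WT on ND. The HFD log2 fold change of Sgms2 was 0.42 ± 0.09, adjusted p = 0.436, in EKO (95% interval 0.23 to 0.61), number 12 of 19937 by p. In WT it was 0.23 ± 0.10, adjusted p = 0.253, and the difference between the diet effects was 0.19 ± 0.13, adjusted p = 0.691. Against WT, EKO had -0.08 ± 0.10, adjusted p = 0.711, on HFD and -0.26 ± 0.10, adjusted p = 1, on ND. None of these values passed in any of the settings tried, where the HFD value in EKO ran from 0.38 to 0.47.

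Sgms1 did not separate the groups. Its arrays ran from 9.83 to 10.06 in EKO on HFD, 9.83 to 10.47 in EKO on ND, 9.98 to 10.26 in WT on HFD and 9.90 to 10.08 in WT on ND. With HFD its log2 fold change was -0.19 (95% interval -0.45 to 0.06), adjusted p = 0.946, in EKO, where Sgms2 had 0.42. In WT it was 0.12 (95% interval -0.18 to 0.41), adjusted p = 0.835.

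Ugcg, which adds glucose to ceramide, and Sphk1, which phosphorylates sphingosine, overlapped between the groups of all 4 pairwise comparisons. Ugcg ran from 9.25 to 9.56 in EKO on HFD, 9.39 to 10.004 in EKO on ND, 9.34 to 10.04 in WT on HFD and 9.24 to 9.77 in WT on ND. Its log2 fold change in EKO against WT on HFD was -0.26 (95% interval -0.64 to 0.12), adjusted p = 0.46. Sphk1 had the narrowest spread of the 10, 0.24 log2 units over 14 arrays, from 8.44 to 8.68. Its value in EKO against WT on HFD was -0.03 (95% interval -0.21 to 0.15), adjusted p = 0.88, and with HFD it was 0.01 (-0.16 to 0.17) in EKO and 0.03 (-0.16 to 0.23) in WT.

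With HFD in WT, 0 of 10 genes passed by limma, where 5.49% of all genes did; 4 had an unadjusted p under 0.05 (16.9% of all genes), namely Sptlc2, Cers4, Degs1 and Sgms2, all with values above 0. The groups did not overlap for 3 genes higher on HFD (Sptlc2, Degs1 and Sgms2; 8.77% of all genes) and 1 lower (Cers2; 11.3%). The median log2 fold change was 0.14, against -0.02 for all genes. With HFD in EKO 0 of 10 passed, and 0% of all genes did; Sgms2 and Cers6 were the 2 with an unadjusted p under 0.05 (4.43% of all genes). The groups did not overlap for Sgms2, higher on HFD (0.973% of all genes), and for Cers6, lower (1.59%). The median of the 10 was -0.13, against 0.01 for all genes. In EKO against WT on ND 0 of 10 passed, where 0.00502% of all genes did, and 1, Sgms2, had an unadjusted p under 0.05 (1.13%); no member was free of overlap (1.72% of all genes). For the difference between the diet effects 0 of 10 passed, where 0.482% of all genes did. In that comparison 3 (Sptlc2, Cers4 and Degs1) had an unadjusted p under 0.05 (10.8%), with values of -0.49, -0.57 and -0.53. The 2 HFD contrasts that contain WT on HFD share those 3 arrays, so their values for a gene are not independent.

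Other genes of sphingolipid metabolism were described from 7 lists with 60 of 63 members measured. In EKO against WT on HFD 1 was higher and 7 lower of 60, where 1.64% and 4.05% of all genes were, with a median log2 fold change of -0.12, against 0.03 for all genes. With HFD in WT 6 were higher and 2 lower, where 3.19% and 2.3% of all genes were, with a median of 0.08, against -0.02. None of the 60 passed by limma with HFD in EKO or between the genotypes on ND, and 1 did for the difference between the diet effects. The sphingosine-1-phosphate list had 0 of 12 passing in any of the 5 comparisons, where 0% to 5.69% of all genes passed.

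Kdsr, the reductase that acts right after serine palmitoyltransferase, went opposite to Degs1. Its level was 10.95 ± 0.14 in EKO on HFD and 11.01 ± 0.18 in EKO on ND (SD, n = 4 each), against 10.47 ± 0.07 in WT on HFD and 10.97 ± 0.07 in WT on ND (SD, n = 3 each). It was higher in EKO than in WT on HFD by 0.48 ± 0.10, adjusted p = 0.0154, and fell in WT with HFD by 0.50 ± 0.11, adjusted p = 0.0161. It was the 1 of 11 de novo synthesis genes that passed in either comparison. The calls ended without EKO replicate 4, WT replicate 2 or WT replicate 3 on HFD (adjusted p = 0.0514, 0.0652 and 0.0534) for the genotype, and without WT replicate 2 on ND or on HFD (0.0754 and 0.0576) for the diet.

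Gla, the lysosomal galactosidase that trims globosides, and B4galnt1, a synthase of complex gangliosides, were the genes of these lists with the smallest and second smallest adjusted p for HFD in WT. Gla was 8.71 ± 0.07 in EKO on HFD against 9.51 ± 0.28 in WT on HFD, a log2 fold change of -0.80 ± 0.12, adjusted p = 0.00122, and rose in WT with HFD by 0.77 ± 0.12, adjusted p = 0.00226. B4galnt1 was lower in EKO than in WT on HFD at -1.09 ± 0.19, adjusted p = 0.00444, and rose in WT with HFD by 1.10 ± 0.21, adjusted p = 0.00629. Cerk, ceramide kinase, was likewise lower in EKO than in WT on HFD (-0.74 ± 0.13, adjusted p = 0.0043) and rose in WT with HFD (0.62 ± 0.14, adjusted p = 0.018). These calls of Gla and B4galnt1, and that of Cerk for the genotype, held in each setting tried. The HFD call of Cerk in WT ended without WT replicate 2 or 3 on ND (adjusted p = 0.0578 and 0.0584), without WT replicate 3 on HFD (0.108), and with only the WT arrays in the fit (0.0523).

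The remaining calls in these lists, named after their values were seen, were those of Acer3, an alkaline ceramidase, Galc, the galactosylceramidase, Gltp, a glycolipid transfer protein, Smpd3, a neutral sphingomyelinase, and B4galt5, a lactosylceramide synthase. In EKO against WT on HFD Acer3 was at -1.01 ± 0.22, B4galt5 at -0.76 ± 0.19, Galc at -0.65 ± 0.17 and Gltp at -0.61 ± 0.16 (adjusted p = 0.0161, 0.0327, 0.0374 and 0.0408). With HFD in WT Acer3 was at 0.99 ± 0.24, Galc at 0.73 ± 0.18, Gltp at 0.64 ± 0.17 and Smpd3 at -0.66 ± 0.18 (adjusted p = 0.026, 0.0299, 0.0453 and 0.0443). Each of these 8 calls ended in several settings, the fewest for Acer3 between the genotypes (2 of 17) and the most for Gltp between the genotypes (7 of 17, among them each of the 4 EKO arrays on HFD left out). All 8 ended without WT replicate 3 on HFD (adjusted p = 0.0856 to 0.243). The 4 diet calls also ended with only the WT arrays in the fit (0.0566 to 0.0887), without WT replicate 2 on HFD (0.0614 to 0.12) and without WT replicate 2 or 3 on ND (0.0521 to 0.205). Within the arrays of lower background 3 calls ended, those of Gltp at -0.65 ± 0.23 (adjusted p = 0.126) for the genotype and 0.79 ± 0.23 (0.0578) for the diet, and that of Galc at -0.51 ± 0.15 (0.0719) for the genotype. Smpd3 was the 1 of 9 genes in the list of Samd8 and the sphingomyelinases to pass in any comparison. Its mean was highest in WT on ND at 9.92, against 9.26 in WT on HFD, 9.38 in EKO on ND and 9.23 in EKO on HFD. In EKO against WT Smpd3 was at -0.54 ± 0.17 on ND and -0.03 ± 0.17 on HFD, and neither value passed.

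**Figure D3:**
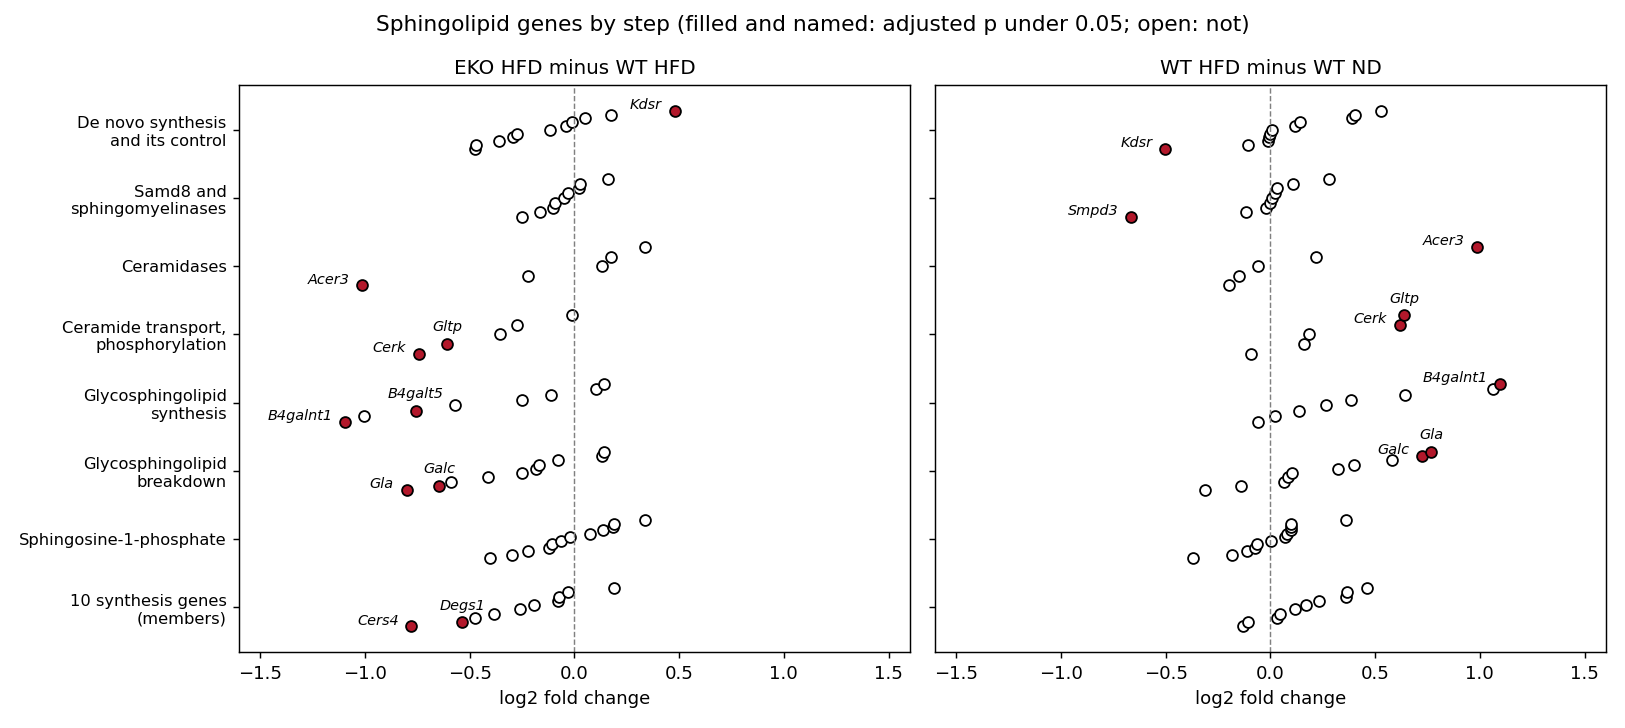
Log2 fold change (horizontal axes) of 60 other sphingolipid genes in 7 lists and of the 10 synthesis genes in the bottom row, for EKO HFD minus WT HFD on the left and WT HFD minus WT ND on the right; each point is a gene, points are spread vertically by value only to separate them, and filled, named points have an adjusted p under 0.05. Kdsr is the 1 filled point above 0 on the left (0.48); on the right it lies at -0.50 beside Smpd3 at -0.66.

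The 3 genes whose centred levels over the 14 arrays lay nearest to those of Cers4 were Abhd17c, a depalmitoylase, Nln, the peptidase neurolysin, and Adam17, the protease that sheds tumour necrosis factor. They differed from Cers4 by a root mean square of 0.14 on the log2 scale, out of 18287 genes compared. Since they were chosen by their levels on these arrays, their values in a comparison are a description and no separate evidence. In EKO against WT on HFD Abhd17c was at -0.59 (adjusted p = 0.0382), Nln at -0.71 (adjusted p = 0.0487) and Adam17 at -0.60 (adjusted p = 0.0578). Nearest to Degs1 were Sparc, a matricellular protein, Rexo2, an oligoribonuclease, and Serpina3n, a protease inhibitor, at 0.12 each. In the same comparison Sparc was at -0.41 (adjusted p = 0.0373), Rexo2 at -0.41 (adjusted p = 0.0465) and Serpina3n at -0.65 (adjusted p = 0.00373).

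**Figure D4:**
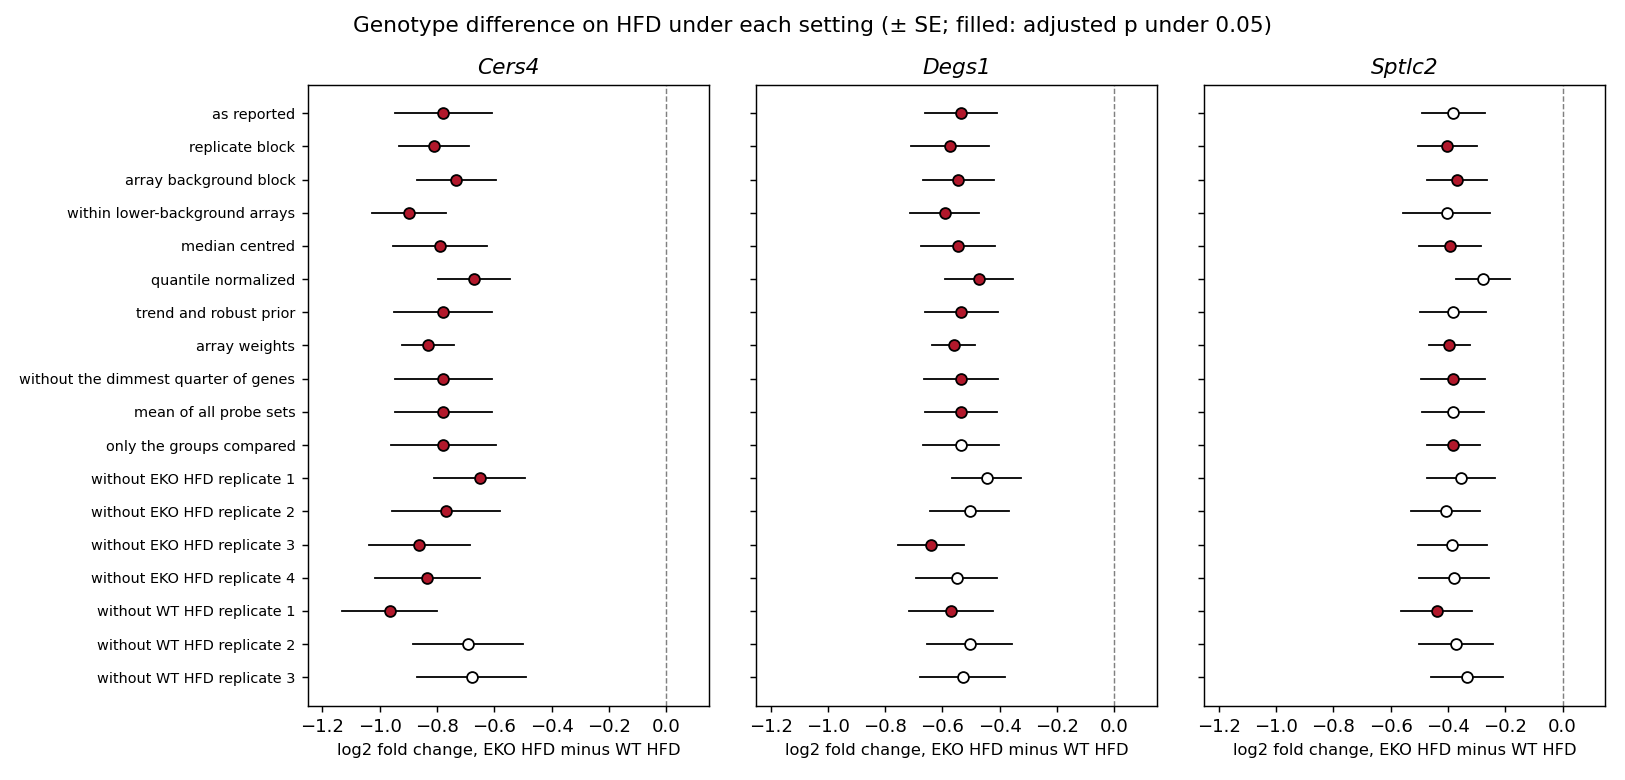
Log2 fold change of Cers4, Degs1 and Sptlc2 in EKO HFD minus WT HFD (horizontal axes) as reported and under 17 alternative settings (vertical axis); lines are ± SE, and filled points have an adjusted p under 0.05. Every value lies below 0; Cers4 is filled in 15 of the 17 alternatives, Degs1 in 11 and Sptlc2 in 7.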

How the data were processed

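RNA from 14 fat pads was read on Affymetrix whole-transcript arrays. The deposited log2 levels, 1 per probe set on each array, came from RMA, which the submitters' processing notes name; it models background, equalises the distributions of the arrays and summarises probes. Its version and settings: not given in the sources used here. Of 34760 rows, 21640 have 1 symbol in the platform annotation, 1321 several and 11799 none. The brightest probe set was kept per gene, which left 19937 genes. Group means over all 14 arrays were fitted and contrasted by lmFit and eBayes of limma 3.58.1 (R 4.3.3; 10 residual degrees of freedom), two-sided, with Benjamini-Hochberg adjustment over all genes. The analysis was tested on simulated data with independent noise on each array. The simulation held no background split between arrays, so it cannot show how such array differences act on the calls. ± is the SE of a fold change or the SD of a level.

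The members, lists and tests were chosen with earlier results of these data known. All 10 members are named in every comparison, from the lists the passing genes (at most 4 per comparison with the smallest p, others as stated), and per passing member the 3 nearest genes. Cers5 and Cers3 are also named from the lists, although neither passed. Groups and replicate numbers come from the sample titles. Same-numbered arrays did not deviate together throughout, so numbers were not used as pairs. Array background was split at the largest gap. Promoters come from RefSeq GRCm38.p6, whose table held all 10 members. Figures were drawn with matplotlib 3.10.9.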

Additional observations from a re-analysis of the deposited data

Results flagged for a closer look

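The diet effect on Gla differed between the genotypes by the interaction test, with a value of -0.83 ± 0.16 (EKO minus WT), adjusted p = 0.0385 by limma over all genes. Gla had a log2 fold change with HFD of -0.06 ± 0.11 in EKO and 0.77 ± 0.12 in WT. The call held in 11 of 23 alternatives, with values of -0.95 to -0.67 and adjusted p of 0.00154 to 0.121, and it ended when any of 12 of the 14 arrays was left out. The value smallest in size, -0.67, came without WT replicate 3 on HFD.

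An array of a group stood apart from the other 3 for 2 genes. Cerk in replicate 3 of EKO on HFD was at 9.13, below the others at 9.33 to 9.35. Gltp in replicate 4 of EKO on ND was at 11.61, above the others at 10.88 to 10.92. These were 2 of 40 pairs of gene and group examined in this way, and chance marks about 5% of groups. In the EKO groups none of the 10 members had such an array, and the WT groups of 3 arrays were not examined.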

How the results depend on the processing

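Among the 10 genes, the number passing with HFD in WT was 0 as reported, 1 with array background as a block, 2 within the 9 arrays of lower background, 3 with array weights and 0 to 1 without single arrays. For EKO against WT on HFD it was 2 as reported, 4 with the background block, 6 with array weights and 0 to 3 without single arrays. For the difference between diet effects it was 0, and 3 with array weights. The share of all genes passing moved too: from 5.49% for HFD in WT to 10.1%, 10.8% and 26.2% in those 3 settings, 8.7% with quantile normalization, 2.4% with only the groups compared and 2.08% to 7.59% without single arrays. For the genotype on HFD it moved from 5.69% to 10.2% with the background block, 34.1% with array weights, 9.25% with quantile normalization and 1.58% to 10.6% without single arrays. For the difference between diet effects it moved from 0.482% to 1.61% with the background block, 2.84% within lower-background arrays, 1.43% with quantile normalization, 11.7% with array weights, 0.816% without the dimmest 25% of genes and 0.186% to 2.5% without single arrays. Quantile normalization gave 1 higher (Cers2) and 2 lower members on HFD, and moved the share of higher calls among all genes from 28.7% to 43%; it was 50.2% with array weights and 20.6% with the replicate block. The cause was not tested.

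Both called members kept their sign in every setting and lost the call in 8 of 34. The 48 results of members that had not passed stayed so in 853 of 876 values and passed in 23; their sign changed in 44, spread over 14 results, none of which passed. Of 287 values for the 17 calls of other pathway genes, 65 no longer passed and 0 changed sign.

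With the replicate block, 0 members passed with HFD in WT, 0 in EKO, 0 on ND, 3 on HFD and 0 for the difference; over all genes 8.39% passed on HFD against 5.69%, and 0.798% for the difference. Same-numbered arrays had correlations of -0.61 to 0.57 in their deviations from group means, and 4 of 6 arrays on HFD correlated best with their own number. The number of arrays limits the precision.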
